A study of Mus musculus with 6 samples.

Results

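The transport proteins with which the colon takes up salt, water and minerals, or secretes chloride, were described in mouse colon tumours through 10 genes. They were Slc26a3, Slc26a2, Slc9a3, Slc5a8, Scnn1a, Scnn1b, Aqp8 and Trpm6 on the absorptive side and Cftr and Slc12a2 on the secretory side. Their members on the array were all probe sets (groups of short probes that read 1 transcript) whose annotation gave exactly 1 of these symbols. This gave 20 of 45101 probe sets, and 10 of the 18194 genes that the annotation named alone. Total RNA from 3 tumours of mice labelled IL8 transgenic, which carry the human chemokine gene IL8, and from 3 tumours of mice labelled wild type was hybridised to Affymetrix arrays, 1 array per sample. Both groups were on the CBA/C57BL/6 background, and tumour tissue of the colon was the material in both. The promoter that drives the transgene, the age of the mice, any agent that both groups received to raise tumours and the site of each tumour along the colon were not stated in the labels used here. Nothing says whether an array holds several tumours, so p-values measure the spread between these samples only.

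In the colon, surface cells take up sodium and chloride together, through a sodium-proton exchanger working beside a chloride-bicarbonate exchanger, and through the epithelial sodium channel in the distal part, and water follows. Cells lower in the crypt secrete chloride: a basolateral cotransporter loads the cell with chloride and an apical channel lets it out. Absorptive transporters mark mature colonocytes and are typically low in undifferentiated tumour epithelium, and loss of the chloride-bicarbonate exchanger or of the sodium-proton exchanger causes diarrhoea in mice and people.

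The arrays differed in ways that touch the results. Labels record every animal as male, yet Xist, the RNA of the inactive X chromosome, averaged 12.65 ± 0.33 in transgenic and 2.47 ± 0.16 in control tumours, and the Y-linked gene Eif2s3y averaged 2.53 ± 0.16 in transgenic and 10.09 ± 0.12 in control tumours (log2, SD, n = 3 each). Genotype and this split cannot be told apart in any value given here. Transgenic array 2 held genes of stratified squamous epithelium, with Krtdap at 12.31 and Trp63 at 8.97, against at most 2.62 for Krtdap and 2.29 for Trp63 on the other 5 arrays. The epithelial markers of the colon were present everywhere: Epcam lay at 13.82 to 13.95, Krt8 at 13.58 to 13.89 and Vil1 at 11.50 to 11.98 on the 6 arrays. Values are log2 expression as the authors deposited them, where a step of 1 is a doubling, and values under 4 are treated as near background.

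A probe set was tested if it reached 4 on 3 or more arrays, which kept 13 of the 20 probe sets and 8 of the 10 genes. Filtering on high values in part of the arrays favours genes that vary, so counts over these 13 describe them and support nothing. Of the 13, 0 had an adjusted p under 0.05 (limma, Benjamini-Hochberg over all 19310 probe sets tested), against 0.057% of all tested probe sets. That 0.057% held the tested probe sets of Xist and Eif2s3y. In Trpm6, 1 of the 13 had an unadjusted p under 0.05, which 5.5% of all tested probe sets reached. Of the 13, 12 were at a higher mean level in transgenic tumours, where 46.8% of all tested probe sets were, 7 were at least 2-fold higher, where 1.6% were, and 1 was at least 2-fold lower, where 2.91% were. Slc26a3 supplied 3 of these 7. The median log2 difference over the 8 genes, taking the brightest probe set of each, was 1.28, beside -0.02 over all tested probe sets. That median rested on a few arrays: leaving out transgenic array 3 gave 0.36, transgenic array 2 gave 0.70, control array 3 gave 0.41 and transgenic array 1 gave 1.92. In bulk tumour RNA, fewer cells of a type and less RNA per cell cannot be told apart.

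**Figure D1:**
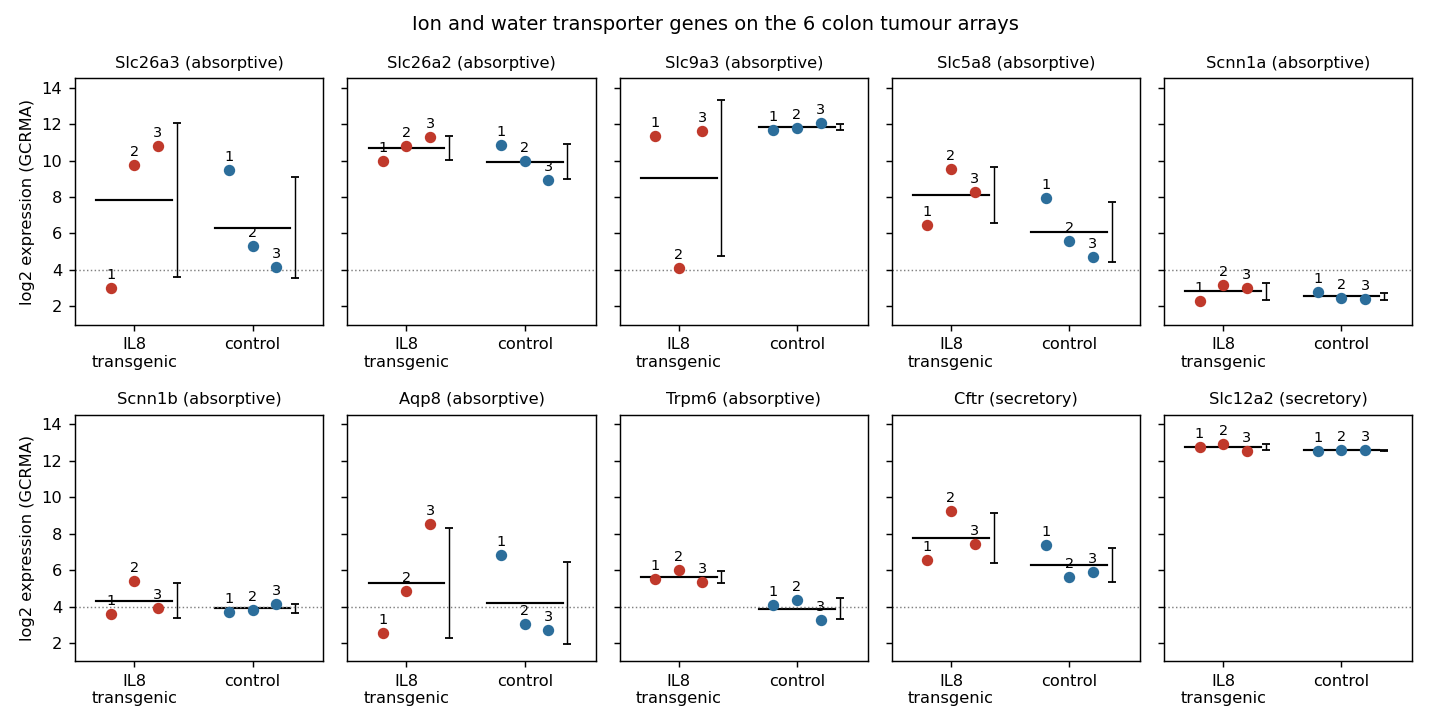
Log2 expression (vertical axis) of the 10 transporter genes on each array, IL8 transgenic in red and control in blue, numbered by replicate. Horizontal lines are group means, bars beside them are the SD (n = 3), and the dotted line marks 4. Slc26a3, Aqp8 and Slc5a8 spread over several log2 units within each group, Slc9a3 falls to 4.10 on transgenic array 2, and the Trpm6 groups do not overlap.

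Slc26a3, the chloride-bicarbonate exchanger of the surface epithelium, differed far more between tumours of the same group than between groups. Its brightest probe set stood at 3.02, 9.76 and 10.80 on transgenic arrays 1 to 3, against 9.48, 5.32 and 4.18 on control arrays 1 to 3. Transgenic arrays 2 and 3 and control array 1 were thus high and the other 3 arrays low, and the groups overlapped. The difference was 1.53 ± 2.33 (SE, limma adjusted p 0.895), with a 95% interval of -4.11 to 7.18, and leaving out transgenic array 1 gave 3.96, transgenic array 3 gave 0.06 and control array 1 gave 3.11. It was 0.58 without transgenic array 2, 1.03 without control array 2 and 0.46 without control array 3. Both other tested probe sets of the gene had the same 3 arrays on top, with differences of 2.03 and 2.16, which ran from 0.88 to 3.77 and from 0.98 to 3.81 with 1 array left out. The second of them averaged 5.05 in transgenic and 2.89 in control tumours, and differed by 1.53 with values under 4 set to 4. The last probe set, at 1.43 to 2.82, stayed under 4 on every array.

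Aqp8, the water channel of colonocytes, and Slc5a8, which carries short-chain fatty acids into the cell with sodium, had the same arrays on top. Aqp8 was at 2.55, 4.84 and 8.53 in transgenic tumours and at 6.81, 3.07 and 2.74 in control tumours. Its difference of 1.10 ± 1.74 (SE, limma adjusted p 0.898) became -0.51 when transgenic array 3 was left out, 2.48 without array 1 of that group, 2.40 without control array 1, and 0.53 and 0.37 without control arrays 2 and 3. Slc5a8, a gene silenced by methylation in many human colon cancers, was at 6.49, 9.53 and 8.29 in transgenic tumours and at 7.92, 5.58 and 4.73 in control tumours. The difference was 2.03 ± 1.04 (SE, limma adjusted p 0.806), and the groups overlapped through transgenic array 1 and control array 1. It stayed above 0 with any 1 array left out, between 1.32 without transgenic array 2 and 2.95 without control array 1.

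Slc26a2, a sulfate transporter that supplies mucin sulfation, had the same 3 arrays on top with a smaller span. Its brightest probe set was at 9.96, 10.78 and 11.28 in transgenic and at 10.86, 9.98 and 8.95 in control tumours, a difference of 0.74 ± 0.55 (SE, limma adjusted p 0.810), and a second probe set differed by 0.85. The difference ran from 0.25 without control array 3 to 1.21 without control array 1. The remaining Slc26a2 probe set lay at 3.05 to 4.49 and was not tested.

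Transgenic arrays 2 and 3 and control array 1 were the 3 highest arrays for 8 of the 13 tested transporter probe sets, 3 of them in Slc26a3 and 2 in Slc26a2. This order was picked out after the values were seen. It held for 7.75% of all tested probe sets, and for 14.9% of the 1929 that spanned at least 2 log2 units over the 6 arrays. Of the 13 transporter probe sets, 10 had such a span, which 9.99% of all tested probe sets had. Car4, the membrane carbonic anhydrase of mature colonocytes and no member of the transporter set, was high on the same arrays, at 2.62, 8.66 and 10.73 in transgenic and 8.61, 3.31 and 2.85 in control tumours. Of the 7 mature colonocyte markers, 4 (Car4, Guca2a, Krt20 and Cdhr5) had these arrays on top and 3 did not: Car1 was highest on control array 2, at 12.29, Ceacam1 on transgenic array 1, at 13.21, and Guca2b, highest on transgenic array 2, was lower on transgenic array 3, at 6.82, than on control array 3, at 7.11. Of the goblet cell markers, the secreted mucus protein gene Clca1 was at 8.46, 12.65 and 13.35 in transgenic and 12.30, 10.87 and 10.08 in control tumours, again with those 3 arrays on top. All 5 goblet cell markers had this order and reached 4 on all 6 arrays, and their summed linear signal was 7677 to 41156 in transgenic and 12740 to 29818 in control tumours. The order was also seen in 4 of the 7 epithelial markers of the colon, Krt8, Vil1, Cdx1 and Cdx2. It was seen in 4 of the 5 smooth muscle markers too, Myh11, Actg2, Des and Cnn1. None of the squamous, crypt base, leukocyte or distal colon markers had it. The 7 mature colonocyte markers summed to 15717 to 23043 in transgenic and 9786 to 22957 in control tumours. Ceacam1, at 12.30 to 13.21 the brightest of the 7 on every array, weighed most in that sum. Krt20 had the order above only narrowly, at 12.1772 on transgenic array 3 and 12.1745 on transgenic array 1. The part of these marker lists in the transporter values was not tested.

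To show the sequence at the start of genes that were high on the same arrays, the promoters of Slc26a3, Aqp8, Slc5a8 and Cftr are printed 5′ to 3′ from RefSeq (GRCm38.p6, 250 bases before to 50 after the start site, all on the + strand), with Trpm6, whose groups did not overlap, beside them. They lie at chr12:31437969-31438268, chr7:123462044-123462343, chr10:88885742-88886041, chr6:18170437-18170736 and chr19:18749480-18749779. Capitals mark, on either strand, TTTAT (the core of sites for the intestinal factor CDX2), GTTAAT (a core of HNF1 sites) and TGTTCT (a core bound by the glucocorticoid receptor).
Slc26a3: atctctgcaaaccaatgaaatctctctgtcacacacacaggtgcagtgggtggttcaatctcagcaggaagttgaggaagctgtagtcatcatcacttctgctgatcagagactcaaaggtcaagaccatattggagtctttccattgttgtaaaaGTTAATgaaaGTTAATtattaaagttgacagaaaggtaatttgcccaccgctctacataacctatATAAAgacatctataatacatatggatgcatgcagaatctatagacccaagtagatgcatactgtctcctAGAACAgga
Aqp8: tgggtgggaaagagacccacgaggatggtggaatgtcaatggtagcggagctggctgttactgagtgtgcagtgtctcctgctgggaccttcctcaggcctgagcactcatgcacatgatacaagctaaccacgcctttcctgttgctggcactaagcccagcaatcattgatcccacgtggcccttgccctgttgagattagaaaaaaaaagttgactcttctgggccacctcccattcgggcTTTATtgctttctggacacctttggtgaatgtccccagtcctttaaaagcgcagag
Slc5a8: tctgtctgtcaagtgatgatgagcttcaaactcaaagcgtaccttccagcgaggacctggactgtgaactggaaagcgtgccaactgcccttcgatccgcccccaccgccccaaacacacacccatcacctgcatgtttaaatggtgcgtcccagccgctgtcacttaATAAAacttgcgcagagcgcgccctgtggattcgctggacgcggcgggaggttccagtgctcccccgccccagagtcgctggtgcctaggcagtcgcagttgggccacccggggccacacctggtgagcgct
Cftr: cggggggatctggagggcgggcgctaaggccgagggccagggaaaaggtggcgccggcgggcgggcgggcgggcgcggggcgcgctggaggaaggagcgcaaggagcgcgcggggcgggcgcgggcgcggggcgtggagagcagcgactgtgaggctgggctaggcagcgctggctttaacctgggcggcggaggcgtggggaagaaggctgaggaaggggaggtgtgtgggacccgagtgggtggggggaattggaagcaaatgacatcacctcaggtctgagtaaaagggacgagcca
Trpm6: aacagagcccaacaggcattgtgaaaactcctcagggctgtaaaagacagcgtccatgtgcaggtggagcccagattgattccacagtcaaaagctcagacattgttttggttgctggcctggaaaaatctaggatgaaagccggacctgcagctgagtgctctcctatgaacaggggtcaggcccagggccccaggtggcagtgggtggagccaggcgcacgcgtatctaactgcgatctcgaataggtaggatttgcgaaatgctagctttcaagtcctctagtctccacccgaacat
Of the 10 genes, 7 matched a promoter in the RefSeq table, and Scnn1a, Slc12a2 and Slc26a2 did not. TTTAT was found in 3 of these 7, at -29 in Slc26a3, -6 in Aqp8 and -82 in Slc5a8 from the start site, and in 40.0% of the 32851 promoters of the table. In Slc26a3 it overlapped TATAAA at -30, letters that 13.6% of all promoters hold on either strand. GTTAAT was found in Slc26a3 alone of the 7, at -94 and -84, and in 7.1% of all promoters. TGTTCT was found in Slc26a3 alone of the 7, at 42, and in 19.0% of all promoters. None of the letters searched was present in the windows of Cftr, which had the same arrays on top, and Trpm6. These matches describe letters and not binding.

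Slc9a3 encodes NHE3, the apical sodium-proton exchanger that works beside Slc26a3. Its tested probe set was at 11.36, 4.10 and 11.64 in transgenic tumours and at 11.69, 11.78 and 12.04 in control tumours. All 3 transgenic arrays lay under all 3 control arrays, as for 6.31% of all tested probe sets, but 2 of them by a small margin and transgenic array 2 by more than 7 log2 units. The difference of -2.80 ± 1.97 (SE, limma adjusted p 0.806) became -0.33 when transgenic array 2 was left out and -2.70 to -4.10 when any other array was. On transgenic array 2 Slc26a3 and Slc5a8 were among the 3 highest values, Epcam was at 13.86, and the squamous markers and the smooth muscle genes Myh11, at 9.80, and Cnn1, at 9.28, were at their highest. A drop of at least 4 log2 units on transgenic array 2 below every other array was seen in 38 of 19310 tested probe sets. The other Slc9a3 probe set, at 2.65 to 3.65, stayed under 4 throughout, so that the low value on transgenic array 2 was read by 1 probe set.

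The epithelial sodium channel, the aldosterone-regulated sodium entry of the distal colon, was near background. Scnn1a, its alpha subunit, stayed at 2.31 to 3.17 on every array and was not tested. Scnn1b, the beta subunit, was at 3.61, 5.42 and 3.94 in transgenic and at 3.73, 3.81 and 4.16 in control tumours and missed the filter, with only transgenic array 2 and control array 3 above 4. Scnn1g, the gamma subunit, named after its values were seen, was at 3.21, 5.05 and 4.51 in transgenic and at 2.99, 3.12 and 3.02 in control tumours and missed the filter too. A reading under 4 says only that these probe sets were not above background.

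Among the genes that control this channel, 10 of 11 were tested, 0 passed and 9 were at a higher mean in transgenic tumours, with a median log2 difference of 0.54 (0.36 leaving out transgenic array 2, 0.85 leaving out array 1). Sgk1, the kinase that keeps the sodium channel at the cell surface, was at 12.09, 11.67 and 11.41 in transgenic tumours and at 10.31, 10.42 and 9.97 in control tumours. The Sgk1 groups lay apart by about 1 log2 unit, and the difference was 1.49 ± 0.23 (SE, limma adjusted p 0.581, unadjusted p 0.000506). Tsc22d3, a glucocorticoid-induced protein that also raises channel activity, averaged 8.06 ± 0.31 in transgenic and 6.91 ± 0.37 in control tumours (SD, n = 3 each), a difference of 1.15. Its 2 further tested probe sets differed by 0.93 and 0.46, and the groups did not overlap in any of them, as in 4.61% of all tested probe sets. Prss8, the protease prostasin that activates the channel, differed by 0.63, again without overlap. Neither Tsc22d3 nor Prss8 passed (limma adjusted p 0.806 for both). Sgk1, Tsc22d3 and Prss8 were named for the smallest unadjusted p of the list, a choice that favours groups that do not overlap. An unadjusted p under 0.05 was reached by 3 of these 10 genes, by 1 gene in each list of magnesium and calcium transport, of chloride secretion and potassium channels and of bicarbonate, proton and fatty acid exchange, and by 0 of the pumps and other aquaporins, beside 5.5% of all tested probe sets. Counts of 1 gene of 6 or 10, and of genes rather than probe sets, are too small to set against that share. The lists were also chosen with earlier results of these data known, so the 3 of 10 support nothing.

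Trpm6, the apical magnesium channel of the distal gut and kidney, was the 1 transporter probe set of 13 with every transgenic array above every control array, an order that 4.61% of all tested probe sets had. It was at 5.50, 6.03 and 5.36 in transgenic tumours and at 4.09, 4.37 and 3.25 in control tumours. The control values lie around the level of 4, and the difference of 1.73 ± 0.34 (SE, 95% interval 0.91 to 2.55) shrank to 1.48 when values under 4 were set to 4. It did not pass (limma adjusted p 0.806, unadjusted p 0.0019). It kept its direction with any 1 array left out, at 1.40 without control array 3 to 1.96 without control array 2, and its other probe set stayed at 2.89 to 3.36, under 4 on every array. In the list of magnesium and calcium transport 6 of 7 genes were tested, 3 were higher and 3 lower, and 0 passed. Slc41a1, a magnesium transporter, was at 9.15, 7.63 and 8.97 in transgenic and 9.55, 9.62 and 9.60 in control tumours, 2.01-fold lower on average, with a log2 difference of -0.53 without transgenic array 2. Cnnm4, which moves magnesium out of the cell on the basolateral side, differed by 0.65 (0.13 and 1.18 when transgenic array 2 or 1 was dropped, 0.28 when control array 3 was) and the calcium pump gene Atp2b1 by 0.24 (0.15 without control array 3).

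**Figure D2:**
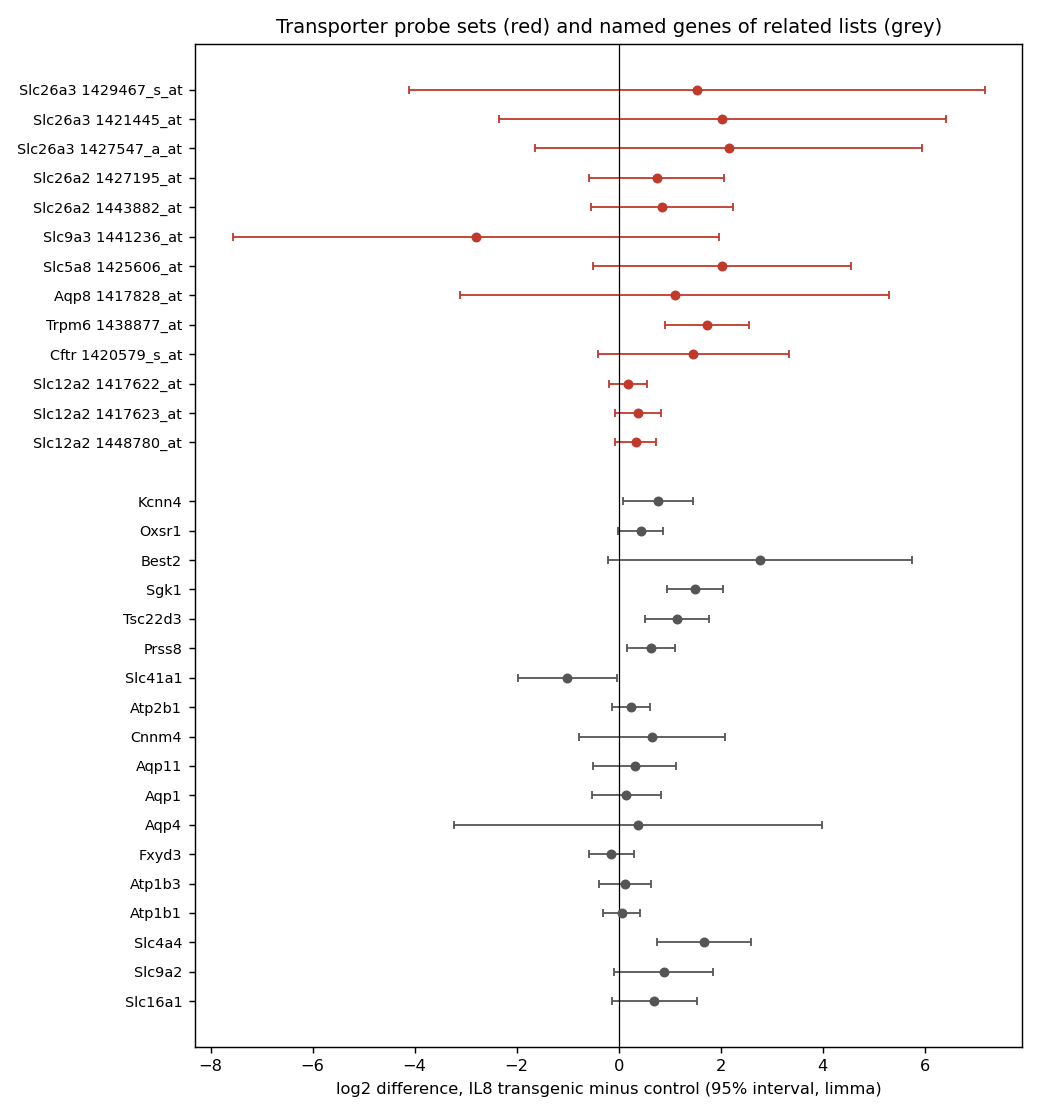
Log2 difference, IL8 transgenic minus control, with its 95% limma interval (horizontal axis), for the 13 tested transporter probe sets in red and for the named genes of the related lists in grey. Intervals are for each probe set alone; those of Trpm6, Sgk1 and Slc4a4 are among those that lie above 0, and none of the probe sets shown passed the adjusted threshold.

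Cftr, the apical chloride channel of the crypt, was at 6.58, 9.26 and 7.42 in transgenic tumours and at 7.35, 5.64 and 5.88 in control tumours. Transgenic array 2 was the highest and the groups overlapped through control array 1. The difference of 1.46 ± 0.77 (SE, limma adjusted p 0.806) became 0.71 when transgenic array 2 was left out, and 2.05 without array 1 of that group. The other Cftr probe set lay at 2.08 to 2.60 on all arrays. Slc12a2, the sodium-potassium-chloride cotransporter NKCC1 that feeds chloride to Cftr, varied least of the 8 tested genes. Its brightest probe set was at 12.77, 12.93 and 12.56 in transgenic and at 12.51, 12.59 and 12.60 in control tumours, a difference of 0.19 ± 0.16 with a 95% interval of -0.19 to 0.56. Leaving out transgenic array 2 gave 0.10 and array 3 gave 0.28. Both other probe sets differed by 0.37 and 0.33, with limma adjusted p from 0.806 to 0.818 over the 3. Transgenic array 3 lay inside the control range in all 3.

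In the list of chloride secretion and potassium channels all 10 genes were tested, 9 were higher and 0 passed, with a median of 0.55 (0.36 without transgenic array 2). Kcnn4, the calcium-activated potassium channel that sustains secretion, was at 10.60, 10.82 and 9.80 in transgenic and 9.75, 9.50 and 9.66 in control tumours, so that transgenic array 3 lay just above the controls. Its difference was 0.77 ± 0.28 (SE, limma adjusted p 0.806). In its other tested probe set, which differed by 0.98, the groups overlapped. There transgenic array 3 was at 6.95 and control array 1 at 6.98. Oxsr1, a kinase that activates Slc12a2, differed by 0.43 without overlap (limma adjusted p 0.806). Kcnn4 and Oxsr1 were named for a small unadjusted p, a choice that favours groups that do not overlap. Best2, a bicarbonate channel of goblet cells in the mouse colon, was at 3.63, 8.50 and 7.76 in transgenic and 4.35, 3.43 and 3.78 in control tumours. Best2 was high on transgenic arrays 2 and 3 and near background on the other 4, and its difference of 2.78 ± 1.23 (SE, limma adjusted p 0.806) was 4.27 without transgenic array 1 and 1.84 without array 2. Of the 5 smooth muscle markers, 4 were highest on the same arrays and Acta2, at 11.34 on transgenic array 3 and 11.37 on control array 2, was not. Cnn1 was at 3.09, 9.28 and 8.36 in transgenic and 4.99, 3.70 and 3.03 in control tumours, and the list summed to 1743.5 to 8067 in transgenic and 2725 to 2991 in control tumours. Of the 5 goblet cell markers, 4 (Fcgbp, Clca1, Tff3 and Spdef) were also highest on transgenic arrays 2 and 3. So were Car4 and Guca2a of the 7 mature colonocyte markers. In the epithelial, squamous and distal colon lists Cdx1, Krt13, which reached 4 on transgenic array 2 alone, and Hoxd13 were. The part of these markers in the Best2 values was not tested.

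For bicarbonate, proton and fatty acid exchange, 6 of 11 listed genes were tested, 4 were higher, 2 lower and 0 passed, with a median of 0.43. That median depended on the filter, at -0.013 with no filter and 0.70 with the filter at 6, and was 0.25 without transgenic array 2. Slc4a4, the basolateral sodium-bicarbonate cotransporter NBCe1, was at 9.40, 8.04 and 8.32 in transgenic tumours and at 7.18, 6.57 and 6.98 in control tumours. Slc4a4 was highest on transgenic array 1, where the brightest Slc26a3 probe set, at 3.02, and Aqp8, at 2.55, were at their lowest. Both values were under 4, and Aqp8 was at 2.74 on control array 3. The other tested Slc26a3 probe sets were lowest on control array 3, at 3.25 and 1.58. The difference was 1.68 ± 0.38 (SE, limma adjusted p 0.806), and its 3 further tested probe sets differed by 1.73, 1.68 and 1.02, with no overlap in any of the 4, an order that 4.61% of all tested probe sets had. The 4 read the same gene on the same arrays. Slc4a4 was also named for its small unadjusted p, a choice that favours groups that do not overlap. Slc9a2, the exchanger NHE2, differed by 0.88 (0.54 without control array 3) and Slc16a1, a lactate and butyrate transporter, by 0.70 (0.41 without transgenic array 2). Neither passed (limma adjusted p 0.806 for both).

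Sodium pump genes and other aquaporins showed small differences. In the list of sodium and proton pumps 4 of 5 genes were tested, 2 were higher and 2 lower, and the differences ran from -0.14 to 0.12, with 0 passed. Atp1b1, a pump subunit, was at 13.05 to 13.27 in transgenic and 13.01 to 13.24 in control tumours. Fxyd3, a pump regulator, differed by -0.14 (-0.00061 without control array 3, -0.26 without control array 1), and Atp1b3, another subunit, by 0.12 (-0.09 without transgenic array 2). Of 7 other aquaporin genes, 3 were tested and 0 passed. Aqp4, a basolateral water channel, was at 6.29, 10.78 and 9.52 in transgenic and 10.75, 6.22 and 8.48 in control tumours, and spread over more than 4 log2 units within each group. Its difference of 0.38 became -0.58 when transgenic array 2 was left out, -0.75 without control array 2 and 1.66 without array 1 of the transgenic group. Aqp1, the water channel of endothelium, differed by 0.15 and Aqp11, an intracellular aquaporin, by 0.31, and both were slightly under 0 without transgenic array 2, at -0.07 and -0.03.

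**Figure D3:**
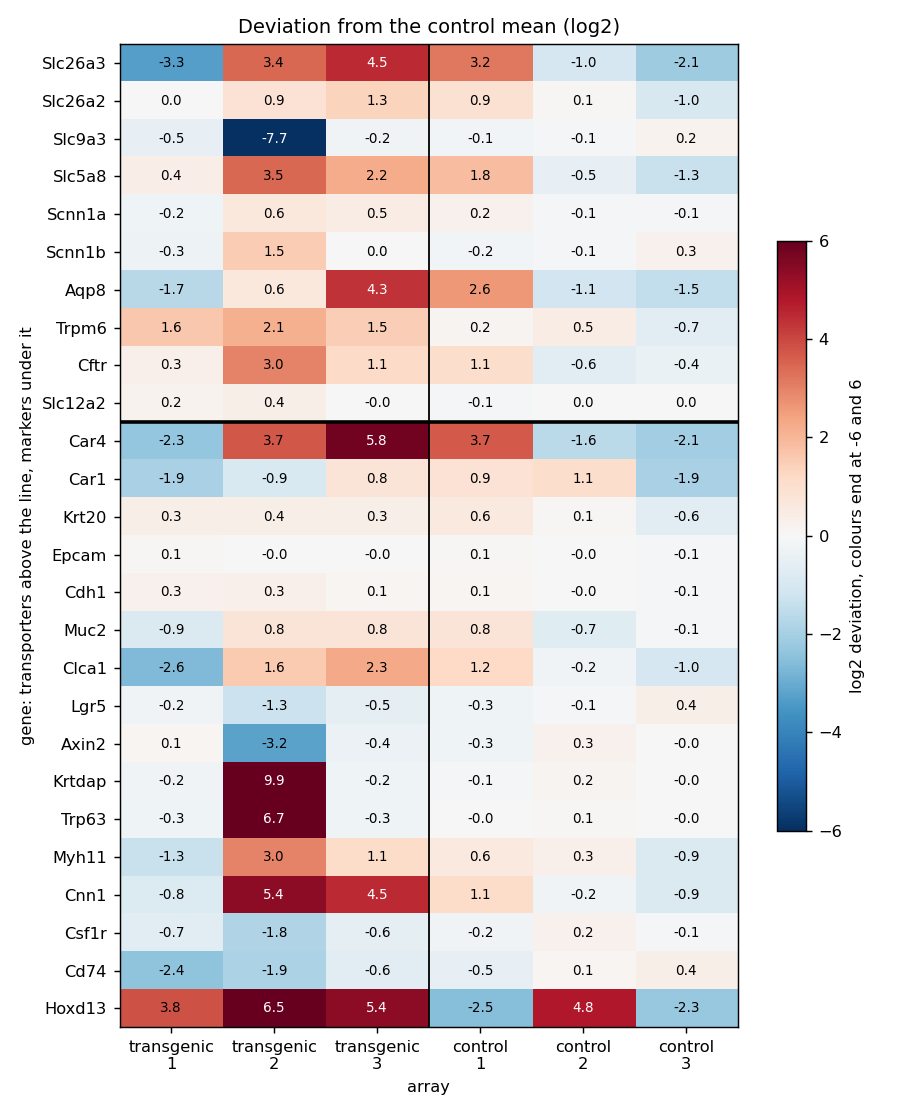
Log2 deviation from the mean of the 3 control arrays, by array (columns, transgenic left of control), for the 10 transporter genes above the thick line and for marker genes of the mature colonocyte, epithelium, goblet cell, crypt base, squamous epithelium, smooth muscle, leukocyte and distal colon lists under it. Red is higher and blue lower; Slc26a3, Aqp8, Car4 and Clca1 are red on transgenic arrays 2 and 3 and control array 1, and Krtdap and Trp63 on transgenic array 2 alone.

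Markers of other cells also differed between arrays. None of those below had transgenic arrays 2 and 3 and control array 1 as its 3 highest. On transgenic array 2, 6 of the 6 squamous markers with a probe set reached 4, and 1 of 6, Krt14, did on each other array, so that the list summed to 82.4 to 16413 in linear signal in transgenic and 94.2 to 295 in control tumours. Crypt base markers summed to 1748 to 5094 in transgenic and 4813 to 6195 in control tumours, all 5 above 4 on every array and lowest on transgenic array 2, where the Wnt target Axin2 was at 7.94. Leukocyte markers summed to 1065 to 2358 in transgenic and 2834 to 3898.5 in control tumours, with 4 of 5 above 4 on every array and Cd3e, a defining T cell gene, under 4 throughout. Hoxd13, a gene of the distal hindgut, was at 8.89, 11.62 and 10.44 in transgenic and 2.53, 9.90 and 2.81 in control tumours, while Hoxb13, also distal, was at 11.96 to 12.13 on all arrays. The 5 distal markers summed to 4790 to 7461 in transgenic and 4000.4 to 5182 in control tumours. Hoxd12 and Hoxa13 were under 4 on every array and Hoxd11 reached 4 on transgenic array 2 alone, so Hoxb13 and Hoxd13 carried that sum. The part of these marker lists in the transporter values was not tested.

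The transporters differed widely in their spread between tumours of a group. The residual SD within groups was 3.58 for Slc26a3, larger than in 99.98% of all tested probe sets, 3.02 for Slc9a3, 2.67 for Aqp8, 1.59 for Slc5a8 and 1.17 for Cftr, against a median of 0.29. It was 0.82 for Slc26a2, 0.48 for Trpm6 and 0.14 for Slc12a2, whose value was under that median. For Slc26a3 the 3 transgenic arrays spanned 7.78 log2 units and the 3 control arrays 5.30. For Slc9a3 the spread lay in the transgenic group, with an SD of 4.27 against 0.18 in the controls, through transgenic array 2 at 4.10. Of the markers outside the transporter set, Car4 had a residual SD of 3.74 and Hoxd13 of 3.11, and Epcam of 0.05.

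**Figure D4:**
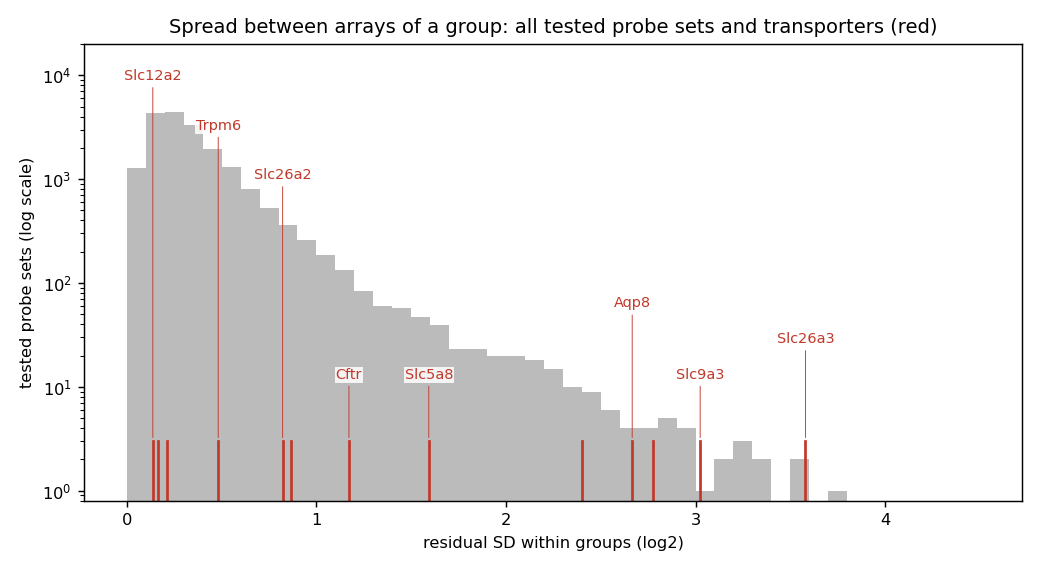
Number of tested probe sets (vertical, log scale) by residual SD within groups (horizontal, log2 units). Red ticks are the 13 transporter probe sets, with the brightest of each gene named; Slc26a3, at 3.58, stands at the far right and Slc12a2, at 0.14, near the left.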

How the data were processed

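Arrays were grouped by title and genotype into 3 IL8 transgenic and 3 control samples. Per the submitters' processing notes, the authors made the log2 values with GCRMA, whose version, like the genome build, was not stated; the deposited log2 values were used as they stand. Arrays had medians of 3.31 to 3.36, and their number limits the precision.

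Probe sets were named from the platform annotation, and all 20 transporter probe sets kept their symbol in RefSeq. After leaving out 64 control probe sets, a probe set was tested where 3 or more arrays reached 4. The comparison used limma 3.58.1 under R 4.3.3 (two-sided, transgenic minus control, Benjamini-Hochberg over 19310 probe sets, adjusted p threshold 0.05), and the procedure was tested on simulated data. List counts and medians use the brightest tested probe set of a gene.

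Named were all members, the 3 related genes per list with the smallest unadjusted p, and markers of the arrays. Members and lists were chosen with earlier results of these data known. Marker sums add linear signals over every listed gene with a probe set. Alternatives were no filter, a filter at 6, quantile normalization, median centring, another prior variance, the replicate number as a block, array weights, a floor of 4, averaged probe sets and leaving out each array.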

Additional observations from a re-analysis of the deposited data

How the results depend on the processing

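No transporter probe set passed in any of the 14 alternatives run for that count (0 of the tested in each), nor did a gene of the related lists. Over all probe sets 11 passed, and 8 to 12 under the alternatives (8 to 11 with 1 array left out). Those 11 held all tested probe sets of Xist and Eif2s3y, with limma adjusted p from 2.5e-05 to 0.00075. The split in these genes cannot be told apart from genotype. The median over the transporter genes, 1.28, ran from 0.36 to 1.92 with 1 array left out and from 0.92 (no filter) to 1.43 (array weights) otherwise. With 1 array left out the differences ran from -0.51 to 2.48 for Aqp8, -0.75 to 1.66 for Aqp4, -0.033 to 0.55 for Aqp11, -0.067 to 0.42 for Aqp1, -0.086 to 0.23 for Atp1b3 and -0.0028 to 0.13 for Atp1b1, and Aqp1 was -0.068 with array weights. The cause was not tested. The lowest adjusted p of a transporter over the alternatives was 0.267, for Trpm6 without transgenic array 3. With the replicate block 8 probe sets passed. Deviations of arrays that share a number correlated at -0.27, -0.28 and -0.05, and transgenic array 2 correlated best with control array 1 (0.30). Deviations were taken from the mean of each group of 3, so these values cannot settle whether a shared number marks a pairing. Signal near background limits Scnn1a, Scnn1b, Trpm6 and Aqp8.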

Other observations

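Among further genes of salt transport, named after their values were seen, Hsd11b2 and Atp12a followed the arrays of Slc26a3 and Fxyd4 did not. Hsd11b2, the enzyme that protects the aldosterone receptor from glucocorticoids, was at 6.94, 10.98 and 10.28 in transgenic tumours and at 9.05, 7.96 and 7.52 in control tumours, with the same 3 arrays on top as Slc26a3. Atp12a, the colonic proton-potassium pump, was at 6.94, 10.44 and 10.97 in transgenic and 10.61, 9.01 and 8.75 in control tumours, again with those 3 arrays on top. Fxyd4, a regulator of the sodium pump, differed in pattern, at 9.96, 10.51 and 7.52 in transgenic and 7.94, 7.48 and 7.08 in control tumours, highest on transgenic arrays 1 and 2. None of these passed, with limma adjusted p of 0.825 for Hsd11b2, 0.999 for Atp12a and 0.806 for Fxyd4. The order seen in Hsd11b2 and Atp12a held for 7.75% of all tested probe sets. It held for 14.9% of those that spanned at least 2 log2 units. Other genes of the related lists had it too, among them Aqp4, Best2, Kcnk5, Kcnma1, Cnnm4 and Slc16a1, so it was not particular to Hsd11b2 and Atp12a.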
